A study of Mus musculus with 6 samples.

Results

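The genes described here encode the natural killer (NK) cell receptors NKp46, CD16 and CD160 and the adaptors and kinases that carry their signals inward. They were chosen by symbol: Ncr1, Fcgr3, Cd160, Fcer1g, Tyrobp, Hcst, Cd247, Syk, Zap70 and Lat. All 10 of 10 were found by Entrez gene identifier among the 26332 genes of the deposited count table, and all 10 were among the 13652 genes that passed the filter on low counts. RNA-seq was done on NK cells sorted from the thymus of C57BL/6 mice, each library coming from an individual mouse. There were 4 wild-type (WT) libraries and 2 from Tcf7 knockout (KO) mice, Tcf7 being the gene of the transcription factor TCF-1. Male mice gave WT 1, WT 3 and KO 1, and female mice gave the rest. The age of the mice, the knockout allele and whether the deletion was limited to a cell type are not given in the labels. Cells had been sorted as positive for NK1.1 and NKp46 and negative for CD3, TCRbeta, CD8 and the CD1d tetramer. NKp46 is the product of Ncr1, so the level of this gene was read in cells already selected for its protein.

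NK cell activating receptors have short cytoplasmic tails and signal through partner chains in the membrane. NKp46 pairs with the FcR gamma chain (Fcer1g) and the CD3 zeta chain (Cd247), and mouse CD16 pairs with the FcR gamma chain. DAP12 (Tyrobp) serves activating Ly49 receptors and DAP10 (Hcst) serves NKG2D. FcR gamma, CD3 zeta and DAP12 carry immunoreceptor tyrosine-based activation motifs (ITAMs), which Src-family kinases phosphorylate and which then bind the tandem SH2 kinases Syk and ZAP-70. These kinases phosphorylate the scaffold LAT, which gathers phospholipase C gamma and other effectors. DAP10 has no ITAM and recruits phosphoinositide 3-kinase and Grb2. CD160 is held in the membrane by a lipid anchor and binds HVEM, the product of Tnfrsf14.

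TCF-1 binds DNA at a core written CTTTGA or CTTTGT, so the RefSeq promoter windows (250 bases before to 50 after a start site, GRCm38.p6) of the genes were searched for these letters on both strands. Windows were found for 9 of the 10 genes, 15 windows in all, and none for Tyrobp. CTTTGA or its complement lay in at least 1 window of 4 of the 9 genes, Zap70, Cd247, Cd160 and Syk, against 18.2% of the 27025 genes with windows, and in 4 of the 15 windows, against 16% of all 32851. CTTTGT was found for 1 of the 9 genes, at a downstream start of Zap70, against 21% of genes, and in 1 of the 15 windows, against 18.7%. Either motif lay in a window of 4 of the 9 genes, against 34.5% of genes. Genes with more windows have more chances to hold a match. The motifs do not overlap each other. The stretches below show the region next to the start for the lead receptor, for 3 genes called between genotypes (Hcst, Lat and Syk) and for the Zap70 and Cd247 starts that hold a match, with CTTTGA or its complement TCAAAG in capitals. Each holds 100 bases, 5′ to 3′ on the gene's strand, and ends at the base before the start, except that of Cd247, which takes in 10 bases from the start on. The Syk stretch belongs to the downstream of the Syk starts (base 52596882), and the window at the upstream Syk start (base 52583437) held no match. Both Syk starts lie inside the annotated gene (52582610 to 52648792). The Cd247 start shown (base 165788681) also lies inside the annotated gene (165779952 to 165871153). So does the Cd160 start whose window held matches (base 96814521), and the window at the Cd160 start at base 96829351 held none. The Lat start (base 126369568) and the Lat stretch also lie inside the annotated gene (126363827 to 126369705).
Ncr1, chr7:4337615-4337714, plus strand: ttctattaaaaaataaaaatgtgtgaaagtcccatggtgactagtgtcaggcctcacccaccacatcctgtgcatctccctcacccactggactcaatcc
Hcst, chr7:30419855-30419954, minus strand: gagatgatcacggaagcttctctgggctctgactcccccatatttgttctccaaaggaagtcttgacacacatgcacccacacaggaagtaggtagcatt
Lat, chr7:126369569-126369668, minus strand: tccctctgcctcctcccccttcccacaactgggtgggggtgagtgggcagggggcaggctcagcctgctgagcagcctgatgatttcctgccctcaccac
Syk, chr13:52596782-52596881, plus strand: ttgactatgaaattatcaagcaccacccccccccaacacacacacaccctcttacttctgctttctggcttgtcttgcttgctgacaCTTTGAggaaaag
Zap70, chr1:36761698-36761797, plus strand: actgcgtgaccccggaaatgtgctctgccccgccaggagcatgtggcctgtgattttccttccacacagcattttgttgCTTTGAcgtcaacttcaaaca
Cd247, chr1:165788591-165788690, plus strand: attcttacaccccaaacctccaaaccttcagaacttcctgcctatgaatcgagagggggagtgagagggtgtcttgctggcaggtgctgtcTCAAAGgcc
A match is a run of letters and was not tested as a binding site.

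The genes lie on few chromosomes. Zap70, Cd247, Fcgr3 and Fcer1g are on chromosome 1, and Ncr1, Tyrobp, Hcst and Lat on chromosome 7. Tyrobp (plus strand, 30413782 to 30417582) and Hcst (minus strand, 30417712 to 30419854) point toward each other with 129 bases between their annotated ends. Fcgr3 (171051169 to 171065915) and Fcer1g (171229572 to 171234349) are separated by 163656 bases.

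Library totals ranged from 16418910 to 31155303 counts. Single genes of the set had 1023 to 31447 counts per library, so none of the values of these 10 genes lies near the counting floor. Some other genes named below had few counts, among them Blk with 3 to 9 in a WT library. Levels are CPM, counts scaled to a common library total by the TMM method, with group values as the mean ± SD (n = 4 in WT and n = 2 in KO). Tcf7 itself stood at 896 ± 63.9 CPM in WT and 360 ± 130 CPM in KO (log2 fold change -1.35, SE 0.17, adjusted p = 2.94e-03), so its transcript was still counted in KO, and gene-level counts do not show whether these reads lie outside the deleted part. NK cell markers were abundant in every library: the summed level of 14 such genes was 16439 to 17652 CPM in WT, 16364 in KO 1 and 13839 in KO 2. Of these 14, 3 were lower in KO, Eomes (-2.11), Itga2 (-1.07) and Klrb1c (-0.48), and Cd226 was higher (1.64); their part in the differences given here was not tested. Markers of other cells were also counted. The summed level of 15 alpha-beta T cell markers was 489 to 780 CPM in WT, 1745 in KO 1 and 2220 in KO 2. Of these 15, 6 were called higher and 1 lower (Cd28, -1.42), where 8.13% and 5.58% of all genes tested were. Much of the KO sums came from Trac and Trbc2. Trac had 16.8 to 39.2 CPM in WT and 405 and 636 CPM in KO. Trbc2 had 70.2 to 101 CPM in WT and 473 and 941 CPM in KO. Both KO libraries were above the WT range for 9 of the 15, beside 20.5% of all genes tested. For 10 gamma-delta T cell markers the summed level was 264 to 414, 787 and 591 CPM (6 higher of 10). For 11 B cell markers it was 378 to 428, 621 and 494 CPM (8 higher of 11). For 24 myeloid markers it was 845 to 922, 1047 and 889 CPM (7 higher of 21 tested), where the sum of KO 2 lay inside the WT range. Of these myeloid markers 1 to 15 were at 0 in a WT library, 2 in KO 1 (Cd14 and Ly6g) and 0 in KO 2. Most of the myeloid sum came from Itgax, at 814 to 887 CPM in WT, 829 in KO 1 and 524 in KO 2. Both KO libraries were above the WT range for 16 of the 24 myeloid markers and 8 of the 11 B cell markers, beside 20.5% of all genes tested. The 16 include Lyz1, which was too low to be tested. Most of the B cell sum in WT came from Ighm, at 359 to 406 CPM, with 357 and 364.5 CPM in KO. Stromal markers gave 111 to 120, 272 and 453 CPM (4 higher of 6 tested of 12). Pecam1 made up most of this sum, at 103 to 113 CPM in WT and 245 and 402 CPM in KO. Of the 12 stromal markers 6 to 9 were at 0 in a WT library, 6 in KO 1 and 2 in KO 2. Mast cell and basophil markers gave 258 to 358, 220 and 469 CPM (1 higher and 1 lower of 4 tested of 11). Kit made up most of this sum, at 177 to 289 CPM in WT, 165 in KO 1 and 383 in KO 2. The IgE receptor genes Fcer1a and Ms4a2 of that list had 0 counts in every library but KO 2, where they had 24 and 12. The same held for Mcpt4, Tpsb2, Mrgprb2 and Prss34, with 140, 79, 2 and 161 counts in KO 2.

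None of the 3 receptor genes was called between genotypes, while the adaptor genes Tyrobp and Hcst and the kinase gene Syk fell in KO, and the scaffold gene Lat rose. Calls were made by edgeR's quasi-likelihood test with sex as a term, where the adjusted p was under 0.05. Of the 10 genes, 4 were called, 3 lower and 1 higher in KO, where 13.7% of all genes tested were called (5.58% lower and 8.13% higher). The split of all calls depended on scaling, with 59.3% of them higher here and 71.9% when counts were scaled by library size alone. The median log2 fold change of the 10 genes was -0.22, beside 0.02 over all genes tested. Both KO libraries lay outside the WT range on the same side for 7 genes, beside 39.3% of all genes tested, with 5 below (18.8% of all) and 2 above (20.5%). In bulk samples such as these, fewer cells of a type and less RNA per cell cannot be told apart.

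**Figure D1:**
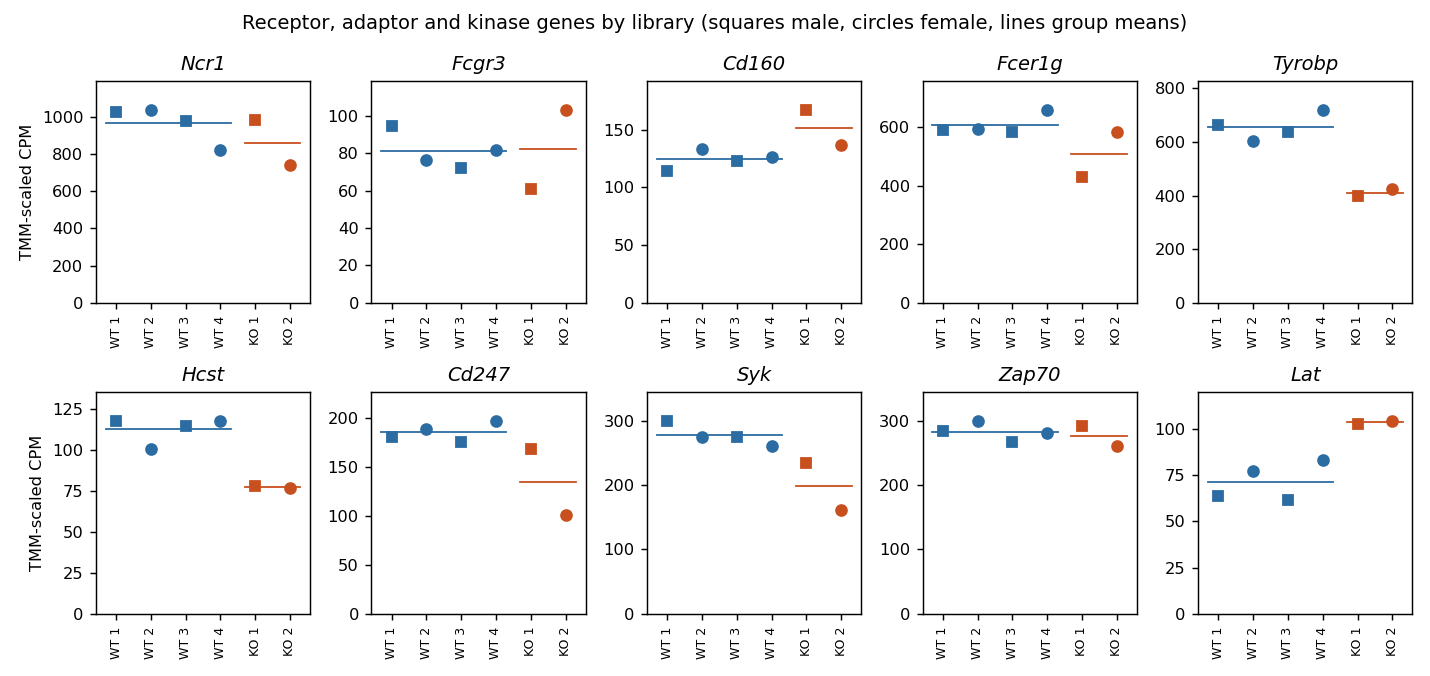
TMM-scaled CPM (y axis, from 0) of each gene in the 6 libraries (x axis), with blue for WT, orange for KO, squares for male, circles for female and lines for group means. Tyrobp and Hcst lie below all WT libraries in both KO libraries and Lat above them, while Fcgr3 is lowest in KO 1 and highest in KO 2.

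Ncr1, the NKp46 gene (chromosome 7, 4337715 to 4345184), had 1023, 1036.5, 976 and 820 CPM in WT 1 to WT 4 and 983 and 740 CPM in KO 1 and KO 2. KO 1 lay within the WT range and KO 2 below it. The WT mean was 964 ± 99.1 CPM and the KO mean 861 ± 172 CPM, and the log2 fold change was -0.17 (95% interval -0.45 to 0.11, edgeR adjusted p = 0.384). Klrb1c, which encodes NK1.1, the other positive sort marker, had 1555 to 1705 CPM in WT and 1269.6 and 1084 CPM in KO (-0.48, adjusted p = 0.0149). That call was lost without WT 1 or KO 2 (adjusted p 0.0585 and 0.0912).

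Fcgr3, the CD16 gene, had 94.3, 76.3, 72.3 and 81.8 CPM in WT 1 to WT 4, while KO 1 had 60.8 CPM and KO 2 had 103 CPM. The KO libraries thus lay on opposite sides of the whole WT range. The group means were nearly equal, at 81.2 ± 9.58 and 81.9 ± 29.8 CPM, and the log2 fold change was -0.01 with an interval of -0.49 to 0.46 (edgeR adjusted p = 0.971). Fcgr3 shares closely related exons with Fcgr2b and Fcgr4, so the split of reads among them is uncertain. Fcgr2b, the inhibitory Fc receptor gene, stood at 10.7 to 19.4 CPM in WT and 19.7 and 12.1 CPM in KO.

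Cd160 (chromosome 3, 96798763 to 96829351) had 114, 133, 122 and 126 CPM in WT 1 to WT 4 and 167 and 136 CPM in KO 1 and KO 2. Both KO libraries lay above the WT range, KO 2 by little. The log2 fold change of 0.29 (interval 0.00 to 0.57) did not pass (edgeR adjusted p = 0.167). Of 4 ligand and partner genes of CD160, Btla was higher in KO, at 0.84 to 3.16 CPM in WT and 13.8 and 5.64 CPM in KO (log2 fold change 2.18, edgeR adjusted p = 0.0327). Btla encodes an inhibitory receptor that shares the ligand HVEM and is known from B cells. Leaving out WT 1, WT 2, KO 1 or KO 2 ended this call, at an adjusted p of 0.0556 to 0.289, and the B cell markers given above were higher in the same KO libraries; their part in this difference was not tested. Tnfrsf14, the HVEM gene, had 18.4 to 24.2 CPM in WT and 26.5 and 28.6 CPM in KO (0.36, adjusted p = 0.160).

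The 4 membrane adaptor genes all had fold changes below 0, and 2 of them fell. Tyrobp, the DAP12 gene, had 662, 603, 638 and 718 CPM in WT 1 to WT 4 and 398 and 423 CPM in KO 1 and KO 2. The lowest WT library was well above the higher KO library. The KO mean was 62.7% of the WT mean (655 ± 48.5 to 411 ± 17.8 CPM, log2 fold change -0.67, SE 0.10, edgeR adjusted p = 6.10e-03). Its call held in all 18 alternatives tested, with fold changes of -0.73 to -0.59.

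Hcst, the DAP10 gene, had 118, 101, 115 and 118 CPM in WT 1 to WT 4 and 78.0 and 76.6 CPM in KO 1 and KO 2. The groups did not overlap, and the KO libraries differed from each other by less than any WT library differed from them. The KO mean was 68.5% of the WT mean (113 ± 8.27 to 77.3 ± 1.01 CPM, -0.54, SE 0.11, edgeR adjusted p = 0.0195). It was no longer called when WT 1, WT 3, KO 1 or KO 2 was left out (the adjusted p was then 0.0643 to 0.112), while the fold change stayed between -0.60 and -0.50 on leaving out any 1 library.

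Fcer1g, the FcR gamma gene, had 591, 593, 584 and 659 CPM in WT 1 to WT 4 and 431 and 583 CPM in KO 1 and KO 2. KO 1 was well below the WT range, and KO 2 lay just under its lowest library. The log2 fold change was -0.27 (interval -0.52 to -0.02) and did not pass after adjustment over all genes (edgeR adjusted p = 0.139). Cd247, the CD3 zeta gene (chromosome 1, 165779952 to 165871153), had 180, 188, 175 and 197 CPM in WT 1 to WT 4, 168 in KO 1 and 101 in KO 2. Here KO 2 stood apart and KO 1 was just under the WT range. The log2 fold change was -0.49 (interval -0.92 to -0.05, edgeR adjusted p = 0.129), and without KO 1 it was -0.94 and called (adjusted p = 0.0111). Annotated Cd247 overlaps Pou2f1, which reached up to 92.7 CPM, and reads in the overlap cannot be told apart without strand. FcR gamma and CD3 zeta both serve NKp46, but the KO library with the lower level was KO 1 for Fcer1g and KO 2 for Cd247.

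**Figure D2:**
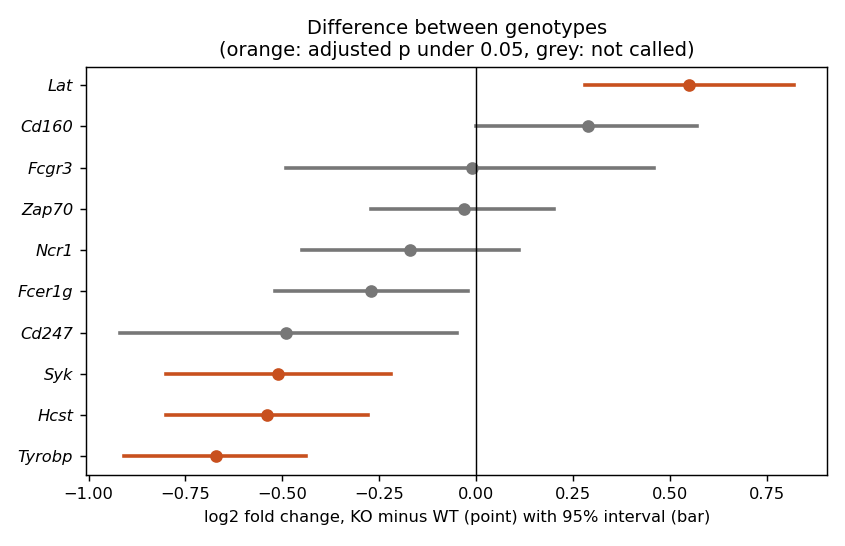
Log2 fold change, KO minus WT (x axis; points) with 95% intervals from the edgeR fit (bars) for each gene (y axis), orange where called. Tyrobp, Hcst and Syk lie below 0, Lat lies above 0, and the intervals of Ncr1, Zap70 and Fcgr3 span 0.

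The kinase genes differed from each other. Syk (chromosome 13, 52582610 to 52648792) had 301, 275, 276 and 261 CPM in WT 1 to WT 4 and 235 and 162 CPM in KO 1 and KO 2. Both KO libraries were below the WT range, KO 2 by much more than KO 1. Syk fell to 71.3% of the WT mean (278 ± 16.7 to 198 ± 51.8 CPM, -0.51, SE 0.12, edgeR adjusted p = 0.0360). Leaving out KO 2 gave -0.30 and leaving out KO 1 gave -0.74. The call ended when WT 1, WT 2, WT 3 or KO 2 was left out (the adjusted p was then 0.0598 to 0.222), when counts were scaled by library size (0.0621) and when sex was not a term (0.0717). B cells and myeloid cells are also known to express Syk. The summed B cell markers given above were above the WT range in both KO libraries. For 16 of the 24 myeloid markers both KO libraries were above the WT range, though the myeloid sum was so only in KO 1. The part of these cells in the Syk level was not tested.

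Zap70 (chromosome 1, 36761798 to 36782821) had 284, 300, 267 and 280 CPM in WT 1 to WT 4 and 292 and 261 CPM in KO 1 and KO 2. KO 1 lay inside the WT range and KO 2 just below it. Its log2 fold change was -0.03 with an interval of -0.27 to 0.20 (edgeR adjusted p = 0.864). T cells rely on ZAP-70, and the T cell marker sums given above were higher in both KO libraries. Much of the alpha-beta sum in KO came from Trac and Trbc2. The part of T cells in the Zap70 and Cd247 levels was not tested.

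Lat, the gene of the scaffold that both kinases phosphorylate (chromosome 7, 126363827 to 126369705), had 63.7, 77.2, 61.4 and 83.4 CPM in WT 1 to WT 4 and 103 and 105 CPM in KO 1 and KO 2. Every KO library was above every WT library. Lat rose to 145% of the WT mean (71.4 ± 10.6 to 104 ± 1.31 CPM, 0.55, SE 0.12, edgeR adjusted p = 0.0214). In WT the male libraries had 63.7 and 61.4 CPM and the female ones 77.2 and 83.4. It ceased to be called when WT 1, WT 3 or KO 1 was left out (the adjusted p was then 0.0725 to 0.176), with a fold change of 0.37 in the last case. Lat is also a T cell gene, and its rise went with the higher T cell marker sums of KO 1 and KO 2. Much of the alpha-beta sum in KO came from Trac and Trbc2. The part of T cells in the Lat level was not tested. Of the CD3 chain genes, Cd3e, Cd3d and Cd3g, none was called (log2 fold changes 1.32, 0.26 and 1.38, adjusted p 0.0970, 0.698 and 0.0566).

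Levels were compared between genes after division by gene length, as TMM-scaled CPM per kb of the length given in the deposited table. The lengths of the transcripts present in these cells were not measured, so the order rests on that given length. By CPM alone, Cd247 (185 in WT) stood above Cd160 (124), Hcst (113), Fcgr3 (81.2) and Lat (71.4). Tyrobp was highest in WT at 1152 ± 85.3 per kb, followed by Fcer1g at 922 ± 53.2, Ncr1 at 659 ± 67.8, Hcst at 255 ± 18.7 and Zap70 at 130 ± 6.27. In this upper part of the order, and for Zap70 over the next gene, every WT library of a gene was above every WT library of the gene that followed it. Fcgr3 (60.0 ± 7.08), Lat (57.8 ± 8.61), Syk (52.7 ± 3.16) and Cd160 (47.0 ± 2.96) formed a lower tier in which neighbours overlapped between libraries, and Cd247 was lowest at 40.2 ± 2.08 per kb, below Cd160 in every pair of WT libraries. The tier of Tyrobp, Fcer1g and Ncr1 stood above 99.5% of all genes tested in WT, and Cd247 above 83.7%.

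In KO the order of the means at the top was Fcer1g (771 ± 163 per kb), Tyrobp (722 ± 31.3) and Ncr1 (589 ± 117). The KO values of Fcer1g, 655 and 886 per kb, spanned those of Tyrobp, 700 and 744, so that these genes were no longer separated as in WT. Ncr1 had 672 per kb in KO 1, above Fcer1g in that library, and 506 in KO 2. The order of the means thus held in KO 2 but not in KO 1. Hcst and Zap70 kept the fourth and the fifth place. Lat (84.0 ± 1.06) stood above Fcgr3, Cd160, Syk and Cd247 in KO, and Syk (37.6 ± 9.83) and Cd247 (29.2 ± 10.4) were the lowest.

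**Figure D3:**
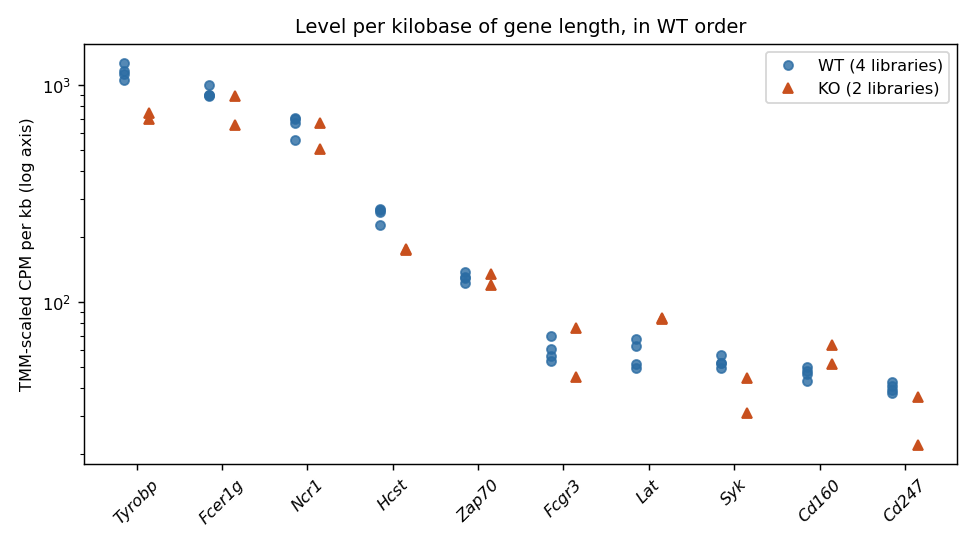
TMM-scaled CPM per kb of gene length (y axis, log scale) for each gene (x axis, in WT order), with a circle for each of 4 WT and a triangle for each of 2 KO libraries. Tyrobp, Fcer1g, Ncr1, Hcst and Zap70 are stepwise separated in WT. In KO the Fcer1g values span those of Tyrobp, and the higher Ncr1 value lies above the lower Fcer1g value. The Hcst triangles nearly coincide, as do those of Lat.

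Ratios of genes with related roles were taken per kb within each library, where scaling has no effect. The size of each ratio rests on the given gene lengths, while its log2 difference between genotypes does not. The per-kb ratio of Syk to Zap70 was 0.437, 0.379, 0.428 and 0.384 in WT 1 to WT 4 and 0.332 and 0.256 in KO 1 and KO 2. Every KO value was below every WT value. The difference of mean log2 ratios was -0.48, with a two-sided exact permutation p of 0.0667, the smallest that 15 regroupings of 4 against 2 libraries allow (0.200 adjusted over 3 ratios), so this design cannot reach 0.05. The ratio of Tyrobp to Hcst was 4.36, 4.66, 4.32 and 4.73 in WT and 3.96 and 4.29 in KO (log2 difference -0.13, exact permutation p = 0.133, adjusted 0.200). Here too both KO values were below every WT value, KO 2 (4.29) just under WT 3 (4.32). Both genes fell by similar amounts, and their ratio shifted little. The ratio of Fcer1g to Cd247 was 22.1 to 23.4 in the 4 WT libraries, a narrow span, and 18.0 in KO 1 and 40.5 in KO 2. The KO libraries lay on either side of that span (log2 difference 0.23, exact permutation p = 0.600).

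The KO libraries, 1 male and 1 female, were also set against WT libraries of their own sex, as differences of mean log2 CPM. Tyrobp gave -0.71 in males and -0.64 in females, Hcst -0.58 and -0.51, and Lat 0.72 and 0.38. These genes, called above, had the same sign in both sexes, and so had Syk at -0.29 and -0.73. Cd247 gave -0.08 and -0.94, and Fcgr3 gave -0.44 and 0.38. The genotype by sex interaction was not called for any of the 10 genes by edgeR (0% of all genes tested were called), and 2 of the 10 had an unadjusted p under 0.05: Cd247 (interaction -0.86, SE 0.18, adjusted p = 0.344) and Fcgr3 (0.84, SE 0.27, adjusted p = 0.446). DESeq2 called 1 of the 10, Cd247 (adjusted p = 6.82e-03), and 1.1% of all genes it tested. Cd247 was also called by edgeR without WT 2 (adjusted p = 0.0382, with 2.91% of all genes called) and without WT 4 (0.0445, with 1.52%). With 1 KO library per sex, sex and the individual mouse cannot be told apart.

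**Figure D4:**
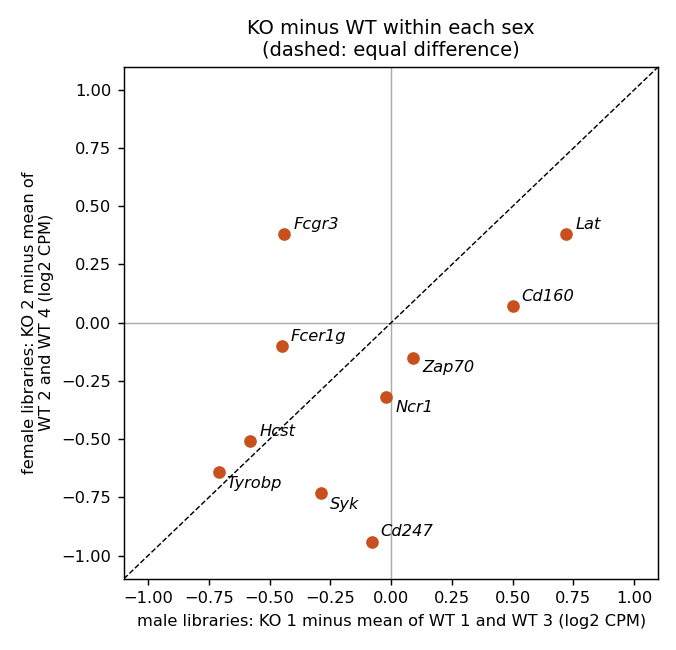
Difference of log2 CPM between KO and WT in male libraries (x axis) and female libraries (y axis), 1 point per gene, with a dashed line of equal difference. Tyrobp and Hcst lie near the line, Cd247 lies below it with -0.08 in males and -0.94 in females, and Fcgr3 has opposite signs.

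Across the 6 libraries, the correlation of log2 CPM between Tyrobp and Hcst was 0.98, and between Cd247 and Syk 0.93. Lat ran against Hcst (-0.87), and Cd160 against Fcer1g and Tyrobp (-0.83 each). These values describe 6 libraries that share the genotype difference. Among 5920 genes of at least 5 mean log2 CPM, the patterns most like that of Tyrobp were those of Actg1, Prps1 and Elac2 (r 0.996 to 0.9985), and those most like Hcst were Gm2225, Rpl34 and Rps27rt (0.991 to 0.995). Syk was matched most closely by Ints14, Itga4 and Ms4a4b (0.995 to 0.997), Lat by Psmb10, Acaa2 and Tubb5 (0.973 to 0.986) and Ncr1 by Cyth4, Tars and Lonp2 (0.979 to 0.988).

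The other genes of the pathway went both ways. Of 97 genes listed as Src-family kinases, effectors, brakes, other receptors or CD160 partners, 88 were tested (median -0.11). Of these 88, 10 were higher and 15 lower in KO, where 8.13% of all genes tested were called higher and 5.58% lower. Of the 25 called, 8 kept their calls on leaving out each of the 6 libraries in turn: Fyn, Src, Blk, Plcg1, Sh3bp2, Klra4, Klra8 and Klra9.

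Upstream of the ITAMs, 4 of 14 Src-family kinase and regulator genes rose and 2 fell (median 0.01), beside 8.13% and 5.58% of all genes tested. Fyn, a Src-family kinase gene abundant in NK cells, fell from 748 to 794 CPM in WT to 519 and 298 CPM in KO (log2 fold change -0.95, edgeR adjusted p = 9.26e-03). Ptprc, the gene of the phosphatase CD45 that keeps these kinases active, fell by 0.59 (adjusted p = 0.0175) and lost its call without WT 3 or KO 2 (0.0509 and 0.0526). Lck had 780 to 877 CPM in WT and 691 and 672 in KO (-0.27, adjusted p = 0.0769). Src and Blk rose from low levels: Src went from 3.72 to 4.52 CPM in WT to 21.8 and 60.1 CPM in KO (3.20), and Blk from 0.162 to 0.363 CPM to 15.7 and 6.54 CPM (5.45). Blk is known from B cells and gamma-delta T cells, whose marker sums are given above; their part was not tested.

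Among 36 scaffold and effector genes downstream of Syk and ZAP-70, 4 rose, 4 fell and 28 were not called (median -0.16). Of all genes tested, 8.13% were called higher and 5.58% lower. The split within the list depended on the processing: 7 were higher and 2 lower with library-size scaling, 8 and 14 with DESeq2, and 7 and 10 with limma voom. These settings called 13.6%, 21.6% and 17.7% of all genes, beside 13.7% in the main fit. With library-size scaling, 71.9% of all calls were higher. The split was 2 and 1 when WT 1 or WT 2 was left out, where 7.38% and 9.76% of all genes were called. Plcg1, the phospholipase C gamma 1 gene that acts with LAT in T cells, rose from 4.92 to 13.3 CPM in WT to 41.0 and 44.6 CPM in KO (2.34, edgeR adjusted p = 1.40e-03), like Lat in direction. Plcg2, its paralogue, had 207 to 231 CPM in WT and 192 and 220 CPM in KO (-0.11, adjusted p = 0.517). Btk rose from a low level, 1.01 to 2.64 CPM in WT, to 9.74 and 4.64 CPM in KO (2.03). Themis2 rose too (7.23 ± 1.86 CPM in WT, 16.4 and 15.6 CPM in KO). Each lost its call on leaving out any 1 library other than WT 4. The B cell marker sum given above was above the WT range in both KO libraries. The part of such cells in the Btk and Themis2 levels was not tested. Pik3r5, a regulatory subunit gene of phosphoinositide 3-kinase gamma, fell from 255 to 352 CPM in WT to 207 and 131 CPM in KO (-0.94, adjusted p = 6.05e-03, and 0.0514 without KO 2). Pik3ap1 (-0.52) and Nck1 (-0.48), adaptor genes, were also called lower and lost their calls without 3 and 5 of the 6 libraries (adjusted p 0.0696 to 0.200). Lcp2, the gene of the scaffold SLP-76, had 270 to 279 CPM in WT and 274 and 270 CPM in KO (-0.01, adjusted p = 0.932), and Vav1 had -0.19 (0.235).

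Of 15 genes that restrain ITAM signalling, 4 fell and 11 were not called, with a median of -0.31. Of all genes tested, 5.58% were called lower and 8.13% higher. Under library-size scaling 3 of the 15 were called lower and 1 higher, and DESeq2 called 6 lower and 1 higher. These settings called 13.6% and 21.6% of all genes. Dok1, an adaptor gene named after its values were seen, lay just short of a call, at 43.4 to 47.9 CPM in WT and 54.7 and 73.3 CPM in KO (0.49, edgeR adjusted p = 0.0502). Dgka, a diacylglycerol kinase gene, fell from 185 to 208 CPM in WT to 151 and 66.1 CPM in KO (-0.96, edgeR adjusted p = 0.0341). The ubiquitin ligase gene Cblb (-0.54, adjusted p = 0.0271) and Ubash3a (-0.54, adjusted p = 0.0464) were lower as well. Without KO 2 all 4 lost their calls, the other being Dgkz, and the fold change of Dgka was then -0.45. Dgka and Cblb also lost their calls without 3 other libraries and Ubash3a without 4 others, over adjusted p of 0.0559 to 0.245.

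**Figure D5:**
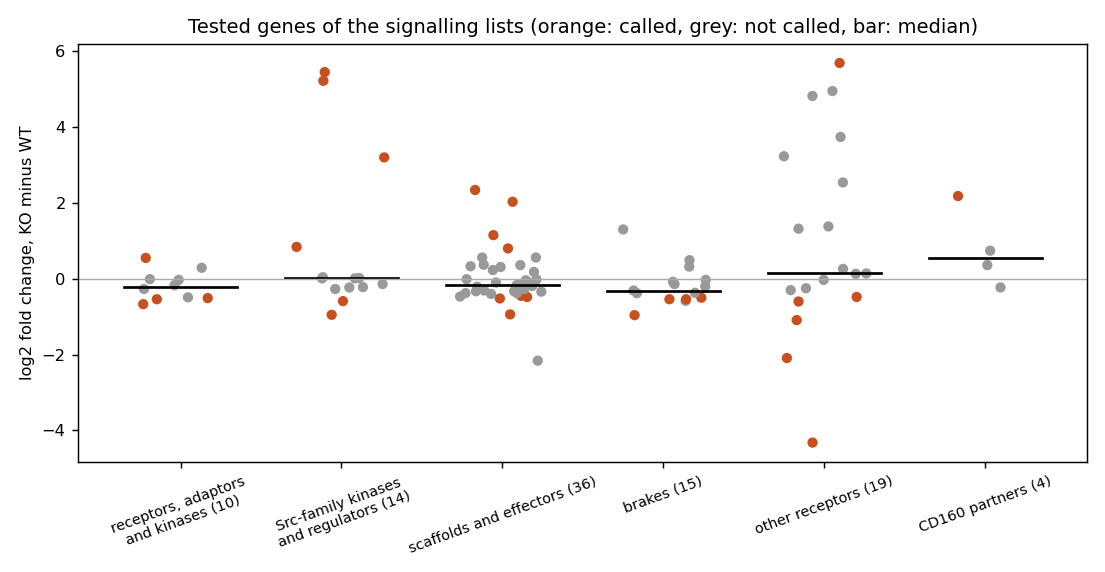
Log2 fold change, KO minus WT (y axis) of each tested gene in 6 lists (x axis, number tested in brackets), orange where called, with a bar at each median. The medians lie between -0.31 and 0.55, and called genes lie on both sides of 0 except among the brakes, where all 4 are below 0, and the CD160 partners, where the 1 called is above.

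Of 28 other receptor chain genes, 19 were tested, 5 fell and 1 rose (median 0.14), beside 5.58% and 8.13% of all genes tested. The list holds partners of these adaptors and CD3 chains, and also inhibitory receptor genes, among them Klra9, Pirb and Fcgr2b. Klra4, the gene of Ly49D, which pairs with DAP12, fell from 657 to 759 CPM in WT to 45.8 and 26.6 CPM in KO (-4.32, edgeR adjusted p = 1.35e-04). Klra8, the gene of Ly49H, another DAP12 partner, fell from 382 to 463 CPM to 130 and 72.5 CPM (-2.09, adjusted p = 1.14e-03), and Klra9, the gene of an inhibitory Ly49 receptor, had a log2 fold change of -1.09 (3.29e-03). Klra genes are close copies of each other, so the split of reads among them is uncertain. Klrk1, the gene of NKG2D, the DAP10 partner, had 1388 to 1657 CPM in WT and 1432 and 1168 CPM in KO (-0.25, adjusted p = 0.0878). Fcgr4, an Fc receptor gene of myeloid cells, had 2 counts over the 4 WT libraries and 53 over the 2 KO libraries, a ratio of 57.9 per scaled library size (95% exact interval 15.2 to 490, counting error only). Its call (edgeR adjusted p = 0.0302) was lost on leaving out any 1 library other than WT 4 (0.0667 to 0.247), and 7 of 21 myeloid markers were higher in KO; their part was not tested.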

How the data were processed

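RNA-seq of 6 libraries of sorted thymic NK cells (4 WT, 2 KO) was analysed. Per the labels' protocols, RNA was purified with a column kit for small samples and cDNA libraries came from a SMART-Seq v4 kit, which does not mark strand, and were read from both ends. The deposited values are raw read counts per Entrez gene, made with featureCounts on mm10 per the submitters' processing notes. The aligner was not given in the sources used here. The deposited table also gives a gene length in bases, used for levels per kb. The 6 single-sample files repeated the same counts, and 0 columns belonged to other samples. Symbols and positions come from RefSeq GRCm38.p6, the build of mm10 (25275 of 26332 IDs matched). Counts from amplified cDNA without molecular identifiers are not independent molecules, so intervals on counts cover counting error only. A floor of 3 counts is 0.0963 to 0.183 CPM. No library was a repeat of another of its group: chi-square values were at least 8.86 times their degrees of freedom over genes of at least 10 counts.

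KO was compared with WT by edgeR 4.0.16 (R 4.3.3): TMM, filterByExpr, glmQLFit and glmQLFTest with sex as an additive term, Benjamini-Hochberg over 13652 genes. The fit had 3 residual degrees of freedom. Adjusted p are from this test unless another is named. Every gene of the set was named; of each pathway list, up to 3 called genes per direction with the largest change, and other names were chosen after their values were seen; 1 gene that this rule names is not reported here. The genes and lists were chosen with earlier results of these data known. On simulated counts (13315 genes) the test recovered 53% of 2-fold and 83% of 4-fold changes, with 5.56% of calls false. Alternatives were other scalings, filters, covariates, DESeq2 1.42.0, limma 3.58.1 voom and libraries left out.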

Additional observations from a re-analysis of the deposited data

Results flagged for a closer look

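Fcer1g in WT was the only 1 of 11 genes (the 10 of the set and Tcf7) in which a WT library stood apart from the others of its group: WT 4 had 659 CPM against 584 to 593 CPM, a gap of 0.879 of the group's range, above Dixon's 95% critical value for 4 samples. Chance alone flags about 5% of such groups.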

How the results depend on the processing

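Of the 4 called genes of the set, 2 were called with the replicate number as a block (Tyrobp and Syk; none higher, 0), and 1 to 4 on leaving out 1 library (lower 1 to 3, higher 0 to 1). Samples of the same number share only that number and their sex (male for replicate 1, female for replicate 2). The correlation of their deviations from group means was 0.13 for replicate 1 and -0.05 for replicate 2. Tyrobp was called throughout. Tcf7 was called in all 18 alternatives (-1.72 to -1.02). The 25 called pathway genes became 47 with DESeq2, 42 with limma voom and 13 to 31 on leaving out 1 library. Over all genes, 1872 calls became 2955 with DESeq2, and 1002, 1022, 1015 and 934 when WT 1, WT 3, KO 1 or KO 2 was left out. Uncalled in every case, Fcgr3 changed sign with library-size scaling (0.07), the filter of 5 CPM in 2 libraries (0.02), no sex term (0.01), voom (0.01, and 0.04 with weights), and ranged from -0.46 to 0.37 on leaving out 1 library (0.12 without WT 1). Zap70 changed sign with library-size scaling (0.05) and ranged from -0.16 to 0.08 (0.01 without WT 2). The interaction count was 1 with DESeq2 and 0 to 1 without 1 WT library. The log2 ratio difference of Fcer1g to Cd247 was -0.35 without KO 2, in a range of -0.35 to 0.82. The causes were not tested.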

Other observations

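Gab2, a docking adaptor gene downstream of the same receptors, was chosen after its values were seen. It had 13.8 to 21.2 CPM in WT, 0.638 CPM in KO 1 and 10.1 CPM in KO 2 (11 and 271 counts), with a log2 fold change of -2.16 that did not pass (edgeR adjusted p = 0.0718). Sh3bp2, an adaptor gene that binds Syk, had 57.4 to 63.5 CPM in WT and 100 and 109 CPM in KO (0.80, adjusted p = 3.36e-03), and its call held on leaving out each library in turn.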
